A study of Homo sapiens with 8 samples.

Results

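The genes described here are 55 genes of DNA repair and of the response to DNA-damaging drugs, in A375 human melanoma cells that did or did not overexpress CD10. They were chosen by name, as every probe that the array's annotation assigns to 1 of the 55 symbols. A probe was found for 51 of them, which gave 91 of the 47322 probes on the array. BRCA2, MRE11A, FANCA and FANCD2 were not analysed here.

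CD10-A375 cells carried the expression plasmid pCXN2.1 with the open reading frame of human CD10, a cell surface peptidase encoded by MME. Mock-A375 cells carried the empty vector. Both were stable transfectants selected with G418, and the cells that overexpressed CD10 were also collected by flow sorting, so the sort and the transgene cannot be told apart. RNA of each group was hybridized to 4 Illumina HumanHT-12 v4 arrays, which the sample descriptions call biological replicates. Only 1 transfected population of each kind is described, and p-values therefore refer to variation among cultures, not among transfections. No drug treatment is described for the cells on the arrays, although the study also exposed both kinds of cells to etoposide, which traps topoisomerase II on DNA, and to gemcitabine, a nucleoside analogue that stalls replication.

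Cells repair each kind of DNA lesion by its own pathway. Damaged bases and single-strand breaks are mended by base excision repair, bulky adducts by nucleotide excision repair, mispaired bases by mismatch repair and double-strand breaks by end joining or by homologous recombination, while ATM, ATR and their target kinases halt the cycle until repair is done. The response to drugs that damage DNA depends as well on their targets, the topoisomerases, and on SLFN11, a protein that is recruited to stalled replication forks and blocks them, and whose loss is known to make cancer cells less sensitive to topoisomerase poisons, platinum compounds and nucleoside analogues.

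The sequences upstream of the start sites of 4 members are shown because every tested probe of SLFN11 and RAD51C was lower and every one of ERCC1 higher in CD10-A375, and because the promoter of MGMT is a known target of silencing by CpG methylation. Each is the 250 bases before an annotated start, 5′ to 3′ on the strand of the gene, taken from RefSeq on GRCh38.p14, with every CG dinucleotide in capitals. Every tested probe of CHEK2 was lower too, but its stretch is not shown. RAD51C had 2 starts and ERCC1 had 3 starts in the table, of which the first listed is shown for RAD51C and the last listed for ERCC1.
SLFN11, chr17:35373622-35373871, minus strand: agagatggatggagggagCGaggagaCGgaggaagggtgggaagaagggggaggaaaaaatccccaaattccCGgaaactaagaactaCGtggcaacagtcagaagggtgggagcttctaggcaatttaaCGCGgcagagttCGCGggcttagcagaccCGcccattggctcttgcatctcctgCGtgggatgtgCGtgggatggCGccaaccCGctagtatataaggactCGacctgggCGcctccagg
RAD51C, chr17:58692323-58692572, plus strand: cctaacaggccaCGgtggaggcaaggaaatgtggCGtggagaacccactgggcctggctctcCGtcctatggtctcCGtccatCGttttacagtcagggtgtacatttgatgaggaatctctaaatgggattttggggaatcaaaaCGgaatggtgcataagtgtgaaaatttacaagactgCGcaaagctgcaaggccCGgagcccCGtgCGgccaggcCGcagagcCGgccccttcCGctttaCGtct
MGMT, chr10:129466991-129467240, plus strand: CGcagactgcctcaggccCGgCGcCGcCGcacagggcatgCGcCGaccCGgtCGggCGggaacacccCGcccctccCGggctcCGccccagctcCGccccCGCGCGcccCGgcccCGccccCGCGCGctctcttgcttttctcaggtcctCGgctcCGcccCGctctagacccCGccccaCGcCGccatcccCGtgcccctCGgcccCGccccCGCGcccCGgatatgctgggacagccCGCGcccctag
ERCC1, chr19:45423529-45423778, minus strand: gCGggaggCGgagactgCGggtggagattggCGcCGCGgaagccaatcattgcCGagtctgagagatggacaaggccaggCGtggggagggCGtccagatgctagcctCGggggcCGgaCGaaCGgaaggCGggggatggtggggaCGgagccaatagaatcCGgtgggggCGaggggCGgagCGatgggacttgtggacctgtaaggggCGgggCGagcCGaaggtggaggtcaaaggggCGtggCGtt

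The stretch upstream of MGMT held 36 CG dinucleotides, more than 95.2% of the 35114 stretches of this length. Those of ERCC1, SLFN11 and RAD51C held 24, 15 and 14, against a median of 11 over all stretches. The GC box GGGCGG, searched on both strands, occurred 8 times upstream of MGMT, 2 times upstream of ERCC1 and 1 time upstream of SLFN11, and it was found in 42.6% of all stretches. The TATA motif, TATAAA or TATATAA on either strand, was found upstream of SLFN11 alone among the 4, and in 11.8% of all stretches. Neither E2F motif searched (TTTGGCGC or TTTCGCGC) nor the cell cycle motif TTTGAA was found in the 4, against 0.968% and 13.3% of all stretches. Of the members, 49 were matched in the table with 71 stretches, which had a median of 21 CG dinucleotides and held a GC box in 69% and a TATA motif in 2.82%. Methylation was not measured.

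Each CD10-A375 array detected between 15977 and 16937 probes, and each mock-A375 array between 15930 and 16709, with a detection p no higher than 0.01. Correlations over the tested probes ran from 0.991 to 0.993 within a group and from 0.962 to 0.967 between the groups, and the number of arrays limits the precision. The column names of the table end in the letters E to H for CD10-A375 and I to L for mock-A375, so whatever these letters mark cannot be told apart from the group. The 4 MME probes were not detected on any of the 8 arrays, and where they lie relative to the cloned coding part was not examined here, so they do not check the labels. Of 12 melanocyte lineage markers, 5 were detected and 4 of them, S100A1, SOX10, ERBB3 and EDNRB, were higher in CD10-A375, by 1.09, 0.53, 0.48 and 0.39 on the log2 scale. Among all genes tested, 19.9% were higher. MITF, at 0.14, did not pass the test, and TYR, TYRP1, PMEL and MLANA, which define pigmented melanocytes, were not detected on any array. Of the fibroblast, epithelial and leukocyte markers, 3 of 9, 2 of 7 and 3 of 7 were detected, and no endothelial marker was. COL1A2 and LUM were detected on no CD10-A375 array and on 1 and 2 mock-A375 arrays. They were called lower, without a fold since CD10-A375 was at background. Both entered the test only through those mock-A375 arrays, so the calls do not show a difference in cell type. LYZ was higher by 1.67, while the general leukocyte marker PTPRC was not detected. The part of these differences in the results below was not tested.

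SLFN11 had the largest difference of all members, with CD10-A375 2.76-fold lower than mock-A375, and NBN followed at 1.65-fold lower. ERCC1 had the largest increase, at just under 1.5-fold. Signals were background-subtracted intensities, and folds were taken from log2 signals after background correction and quantile normalization, with their standard errors (SE). A gene was represented by its brightest probe, and the test was limma with Benjamini-Hochberg adjustment over the 19550 probes detected on at least 1 array. Of the 46 members that were tested, the count was 5 higher in CD10-A375 (10.9%), 11 lower (23.9%) and 30 without an adjusted p under 0.05. Among all 11303 genes tested, 19.9% were higher and 21.9% were lower, 41.8% in either direction, so that the 16 members called, 34.8%, were no larger a share than among all genes. The median log2 fold change was -0.09 over the members and -0.03 over all genes, and 31 of 46 members (67.4%) had a value below 0, against 53.4% of all genes. Without the 3 members that were not detected in mock-A375 (ERCC4, ERCC6 and ATR) the median was -0.11. Only SLFN11 and NBN, 4.35% of the members, passed the test with a difference over 1.5-fold, against 15.7% of all genes. In bulk RNA, fewer cells that express a gene and less RNA of it per cell cannot be told apart.

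The members called higher were ERCC1, MSH6, XRCC1, OGG1 and FANCG. Those called lower were SLFN11, NBN, RAD51C, XRCC5, BLM, CHEK2, WRN, EXO1, MGMT, ERCC3 and APEX1. For 15 members, 32.6%, no array of 1 group lay within the range of the other, against 40% of all genes. These were 13 of the members called, all but MGMT, OGG1 and WRN, together with ERCC4 and RAD51AP1, which did not pass the test. For 25 of the 30 members not called, the 95% interval of the difference lay within 1.5-fold in either direction. ERCC6 is among these, but it was not detected in mock-A375, so its interval sets no limit on its fold. Among those detected in both groups, the log2 fold changes of members not called ran from -0.44 for TDP1 to 0.21 for BRCA1.

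**Figure D1:**
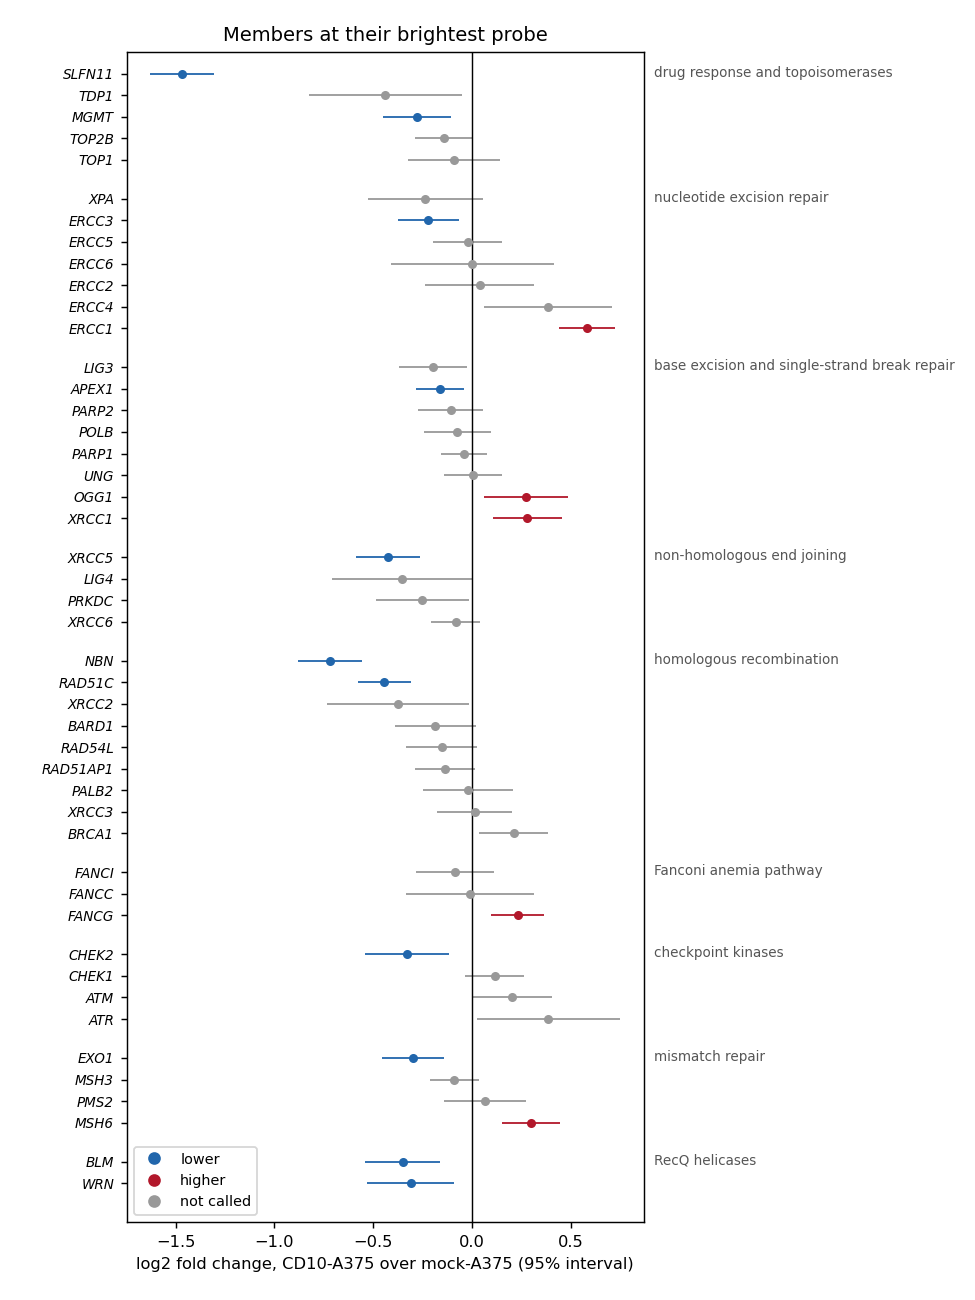
Log2 fold change of CD10-A375 over mock-A375 for the 46 tested members at the brightest probe, grouped by role, with bars for the 95% interval from limma (4 arrays each) and blue or red for members called lower or higher. ERCC4, ERCC6 and ATR, not detected on any mock-A375 array, are drawn at fitted values that are not measured folds. SLFN11 at -1.47 and NBN at -0.72 lie farthest below 0 and ERCC1 at 0.58 farthest above it.

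Among the genes of drug response, SLFN11 differed most. The signals of its brightest probe were 443, 467, 413 and 407 on the CD10-A375 arrays, against 1439.6, 1062, 1313 and 1282 on the mock-A375 arrays. The highest CD10-A375 array was below the lowest mock-A375 array, and the log2 fold change was -1.47 (SE 0.08, adjusted p = 3.6e-11) in limma. Ordered from the lowest value, SLFN11 stood at place 124 of the 11303 genes. A second, dimmer probe gave signals of 79.6, 115, 94.7 and 72.2 on the CD10-A375 arrays, against 336, 273, 395 and 390.0 on the mock-A375 arrays. It did not overlap between the groups either, and its log2 fold change was -1.75 (SE 0.12, adjusted p = 8.53e-10), or 3.37-fold lower in CD10-A375.

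MGMT encodes the methyltransferase that removes alkyl groups from guanine and protects cells from alkylating drugs. Its signals were 526, 590.5, 518 and 578 on the CD10-A375 arrays, against 628, 716, 774 and 675 on the mock-A375 arrays. On the normalized scale the groups overlapped, with 9.17 ± 0.10 in CD10-A375 and 9.45 ± 0.13 in mock-A375 (SD, n = 4 each), and the gene was lower in CD10-A375 with a log2 fold change of -0.28 (SE 0.08, adjusted p = 0.0119). TOP1, which encodes topoisomerase I, had signals of 149, 183, 206 and 203 on the CD10-A375 arrays, against 204, 194, 227 and 193 on the mock-A375 arrays. After normalization the CD10-A375 arrays spanned the mock-A375 arrays, and the log2 fold change was -0.09 (95% interval -0.32 to 0.14, adjusted p = 0.568). TOP2B, the topoisomerase II that non-dividing cells make and 1 of the targets of etoposide, had signals of 1565, 1615, 1585 and 1554 on the CD10-A375 arrays, against 1881, 1715, 1761 and 1901 on the mock-A375 arrays. All 4 CD10-A375 signals were the lower ones before normalization, but the normalized values overlapped and the log2 fold change of -0.14 (95% interval -0.29 to 0.01, adjusted p = 0.131) did not pass the test.

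TDP1, which frees topoisomerase I that is trapped on DNA, had signals of 518, 628, 810.2 and 645 on the CD10-A375 arrays, against 986, 1022, 561 and 1186 on the mock-A375 arrays at its brightest probe. Replicate 3 of mock-A375 lay within the range of the CD10-A375 signals, and below it after normalization, whereas the other mock-A375 arrays lay above it, and the log2 fold change was -0.44 (95% interval -0.83 to -0.05, adjusted p = 0.0716). Without that array it was -0.68 with an adjusted p of 0.000398, and without replicate 3 of CD10-A375 it was -0.57 with an adjusted p of 0.0201. These fits dropped the lowest mock-A375 or the highest CD10-A375 array, which by itself widens the difference. A dimmer probe gave 60.6, 56.9, 52.8 and 57.9 on the CD10-A375 arrays, against 83.5, 76, 85.9 and 79.1 on the mock-A375 arrays. There the groups did not overlap and the probe was lower in CD10-A375, with a log2 fold change of -0.40 (SE 0.12, adjusted p = 0.0146).

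**Figure D2:**
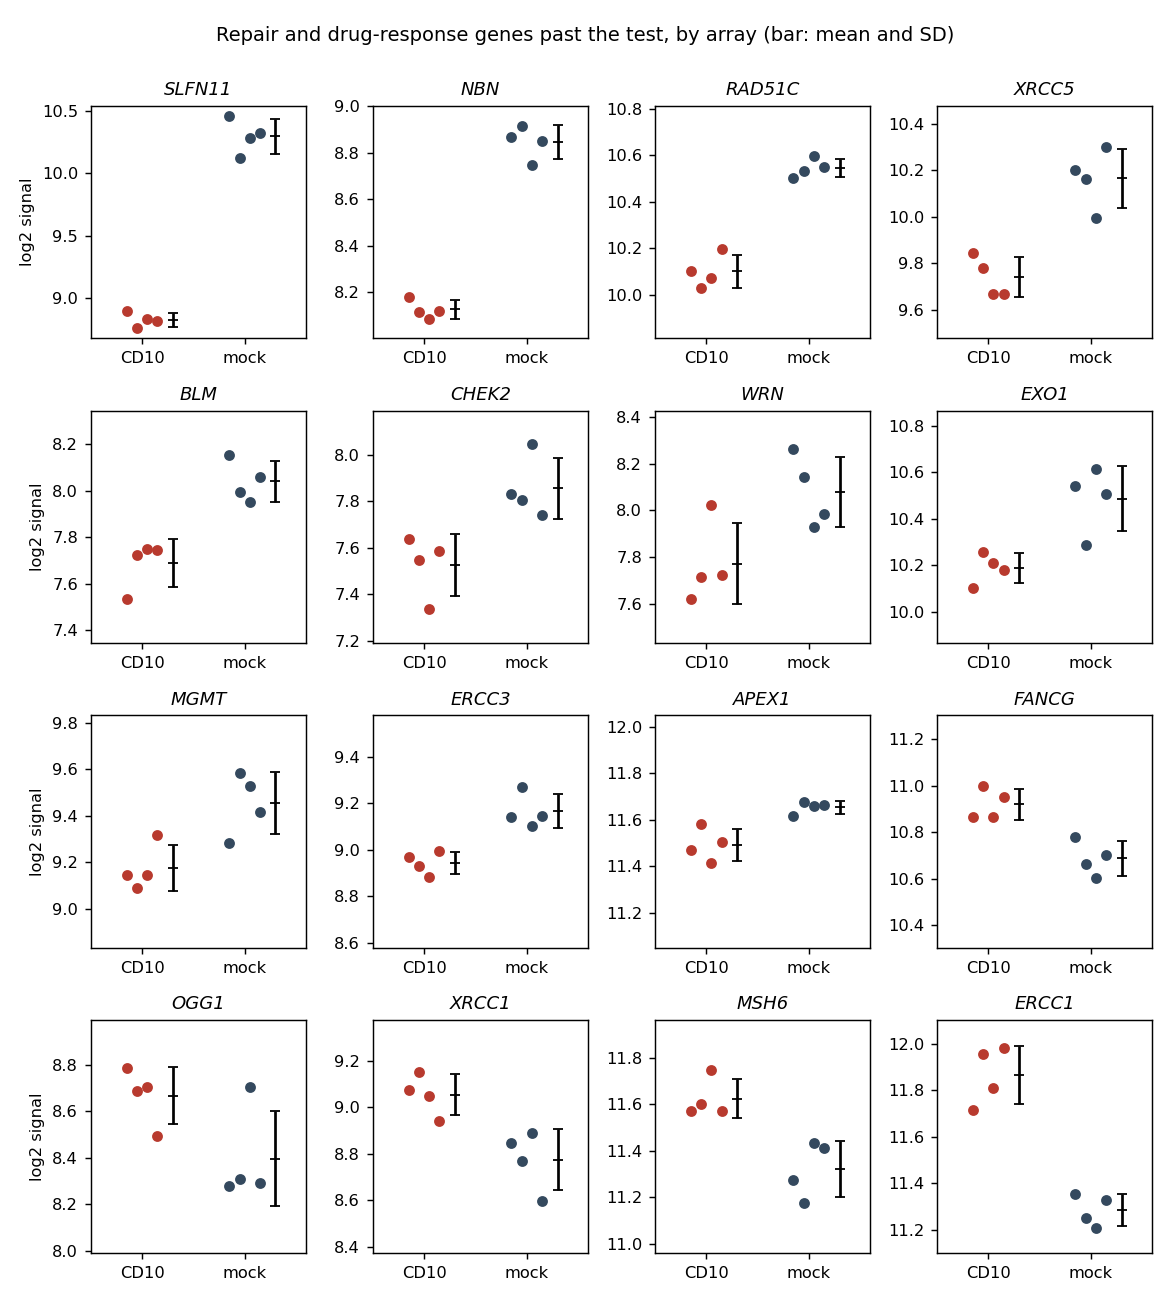
Normalized log2 signal on each array for the 16 members past the test, CD10-A375 on the left and mock-A375 on the right of each panel, with points for the 4 arrays and, beside them, a tick for the mean and bars for the SD. Each panel has its own range. The groups stand farthest apart for SLFN11, at 8.83 ± 0.06 in CD10-A375 and 10.30 ± 0.14 in mock-A375 (SD, n = 4 each).

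The nucleotide excision repair genes held the largest increase. ERCC1 encodes the partner of the ERCC4 (XPF) nuclease, which cuts the damaged strand on the 5′ side of a lesion and also acts on interstrand crosslinks. Its signals were 3217, 4445, 3341 and 3830.3 on the CD10-A375 arrays, against 2645, 2308, 2531 and 2581 on the mock-A375 arrays, and the lowest CD10-A375 array was above the highest mock-A375 array. The log2 fold change was 0.58 (SE 0.07, adjusted p = 1.88e-06), and all 4 ERCC1 probes were higher in CD10-A375, by 0.51 to 0.64. For ERCC4 itself, the brightest probe was detected on all 4 CD10-A375 arrays and on no mock-A375 array. Its signals were 39.1, 44.1, 40.0 and 35.1 on the CD10-A375 arrays, against 22.2, 25.2, 29.4 and 27.6 on the mock-A375 arrays. All were close to the limit of detection, so the fold is only bounded, at 1.04-fold higher or more in CD10-A375, and the adjusted p from limma was 0.0575. The other ERCC4 probe, detected on 1 mock-A375 array alone, did not pass the test either (adjusted p = 0.251).

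ERCC3, a helicase of the TFIIH complex that opens DNA around the lesion, had signals of 467, 529, 428 and 462 on the CD10-A375 arrays, against 568, 578, 563 and 549.8 on the mock-A375 arrays. It was lower in CD10-A375, at -0.22 (SE 0.07, adjusted p = 0.0234), a call that did not hold on values left unnormalized between arrays (adjusted p = 0.0779), without replicate 3 of CD10-A375 (adjusted p = 0.06) or without replicate 2 of mock-A375 (adjusted p = 0.0805). The other TFIIH helicase, ERCC2, differed by 0.04 (95% interval -0.24 to 0.31, adjusted p = 0.847). The 3′ nuclease gene ERCC5 differed by -0.02, and the damage verification gene XPA by -0.24, and neither passed the test. The transcription-coupled repair gene ERCC6 was detected on 2 CD10-A375 arrays and not in mock-A375, so no fold is given (adjusted p = 0.997).

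In base excision and single-strand break repair, 2 of 8 genes were higher and 1 was lower, against 19.9% higher and 21.9% lower among all genes. XRCC1 encodes the scaffold that holds the enzymes of single-strand break repair together. Its signals were 502, 617, 483 and 445 on the CD10-A375 arrays, against 459.5, 401, 485 and 377 on the mock-A375 arrays, and after normalization every CD10-A375 array was above every mock-A375 array. The log2 fold change was 0.28 (SE 0.08, adjusted p = 0.0128), and without replicate 4 of mock-A375 it was 0.22 with an adjusted p of 0.0501. Without normalization between arrays the adjusted p was 0.116. OGG1 encodes the glycosylase that removes oxidized guanine. It had signals of 406, 440.4, 376 and 319.9 on the CD10-A375 arrays, against 305, 290.1, 425 and 302 on the mock-A375 arrays, with replicate 3 of mock-A375 among the CD10-A375 arrays and the other 3 below them. The log2 fold change was 0.27 (SE 0.10, adjusted p = 0.0433), and the call was lost in 6 of the 8 fits that left out 1 array (all but those without CD10-A375 replicate 4 and without mock-A375 replicate 3, adjusted p up to 0.117). Under 3 other scalings the call was also lost, with an adjusted p of 0.065 for average normalization, 0.0851 for average normalization with low values floored and 0.166 for values left unnormalized between arrays. A second OGG1 probe, at 0.12, did not pass the test.

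APEX1 encodes the endonuclease that cuts at abasic sites. Its signals were 2705, 3421, 2508 and 2699 on the CD10-A375 arrays, against 3174, 3074, 3504 and 3271 on the mock-A375 arrays, a small difference of -0.16 (SE 0.06, adjusted p = 0.0352) that was lower in CD10-A375 at the brightest probe. The other APEX1 probe had -0.11 (adjusted p = 0.26), and 6 of the 8 fits without 1 array lost the call, all but those without CD10-A375 replicate 2 and without mock-A375 replicate 1 (adjusted p up to 0.0986). Without normalization between arrays the adjusted p was 0.123. PARP1, the sensor of strand breaks, had signals of 6152, 7484, 6239 and 5799 on the CD10-A375 arrays, against 6758, 6374, 7507 and 6380.3 on the mock-A375 arrays. The groups overlapped and the log2 fold change was -0.04 (95% interval -0.16 to 0.08, adjusted p = 0.615). PARP2, at -0.11, the uracil glycosylase gene UNG, at 0.01, the polymerase gene POLB, at -0.08, and the ligase gene LIG3, at -0.20, did not pass the test either. Without replicate 3 of mock-A375 LIG3 was lower, at -0.26 with an adjusted p of 0.0206. For LIG3 that was the lowest mock-A375 array, so leaving it out by itself widens the difference.

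Of the genes of non-homologous end joining, XRCC5 alone passed the test. It encodes Ku80, which with Ku70 forms the ring that binds broken ends. The signals were 859, 964, 742 and 746 on the CD10-A375 arrays, against 1204, 1089, 1084 and 1271 on the mock-A375 arrays, without overlap, and the log2 fold change was -0.43 (SE 0.08, adjusted p = 0.00022). XRCC6, the gene of its partner Ku70, had signals of 3844, 4437, 3708 and 3526 on the CD10-A375 arrays, against 4442, 3983, 4374 and 3914 on the mock-A375 arrays. These overlapped after normalization, with a log2 fold change of -0.08 (95% interval -0.21 to 0.04, adjusted p = 0.295), and a second probe gave -0.02.

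PRKDC, which encodes the DNA-dependent protein kinase that Ku recruits, had 4 tested probes. Its brightest probe gave 1618, 1298, 1555 and 1132 on the CD10-A375 arrays, against 1939.8, 1538, 1606 and 1819 on the mock-A375 arrays, a log2 fold change of -0.25 (95% interval -0.49 to -0.02, adjusted p = 0.0887). The other probes were at -0.26, -0.30 and -0.36, the last detected on 1 CD10-A375 and 3 mock-A375 arrays. All 4 probes lay below 0 and none passed the test. The brightest probe passed it when replicate 1 or 3 of CD10-A375 or replicate 3 of mock-A375 was left out, with adjusted p of 0.0244, 0.0263 and 0.0459. These were its highest CD10-A375 arrays and its lowest mock-A375 array, so leaving 1 out by itself widens the difference. With average normalization by the authors the adjusted p was 0.0458. LIG4, the ligase of this pathway, was detected on 2 CD10-A375 and 4 mock-A375 arrays and had a log2 fold change of -0.35 (adjusted p = 0.109). XRCC4, its partner, was not detected on any array.

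Homologous recombination held 2 genes that were lower in CD10-A375 and none that was higher among 9 tested, against 21.9% lower and 19.9% higher among all genes. NBN encodes nibrin, the subunit of the MRE11 complex that brings ATM to double-strand breaks. Its signals were 264, 288, 241 and 245 on the CD10-A375 arrays, against 467, 449, 439 and 449.8 on the mock-A375 arrays. All 4 CD10-A375 arrays lay far below the mock-A375 arrays, and the log2 fold change was -0.72 (SE 0.08, adjusted p = 6.62e-07). RAD51C acts in the same pathway and in the repair of crosslinks. Its signals were 1026, 1149, 980.4 and 1078 on the CD10-A375 arrays, against 1482, 1404, 1650.1 and 1488 on the mock-A375 arrays, again without overlap, and the log2 fold change was -0.44 (SE 0.06, adjusted p = 2.08e-05). The other RAD51C probes, at -0.44 and -0.60, were lower in CD10-A375 as well.

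BRCA1, whose product directs broken ends into recombination, had values above 0 at both probes. The brightest probe had signals of 673, 756, 643 and 529 on the CD10-A375 arrays, against 535, 549, 662 and 564 on the mock-A375 arrays. After normalization, replicate 4 of CD10-A375 and replicate 3 of mock-A375 lay among the arrays of the other group, and the log2 fold change of 0.21 (SE 0.08, adjusted p = 0.0568) did not pass the test. Without either of these arrays it did, at 0.28 (adjusted p = 0.0149) and 0.25 (adjusted p = 0.0332), and in no other fit that left out 1 array. They were the lowest CD10-A375 and the highest mock-A375 array, so leaving either out by itself widens the difference. The second probe was higher in CD10-A375, with signals of 505, 562, 535 and 529 on the CD10-A375 arrays, against 449, 423, 507 and 465 on the mock-A375 arrays. After normalization its groups did not overlap, and the log2 fold change was 0.24 (SE 0.08, adjusted p = 0.0165). That call was lost without replicate 4 of CD10-A375 (adjusted p = 0.0537).

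The partners of BRCA1 and the other recombination genes did not pass the test. BARD1 was at -0.18, PALB2 at -0.02, RAD54L at -0.15, RAD51AP1 at -0.14 and XRCC3 at 0.01. XRCC2 varied widely within both groups, with signals of 283, 521, 583 and 469 on the CD10-A375 arrays, against 587, 676, 472 and 717 on the mock-A375 arrays. Its log2 fold change was -0.37 (95% interval -0.73 to -0.02, adjusted p = 0.0969), and without replicate 3 of either group it passed the test, at -0.52 (without CD10-A375 replicate 3, adjusted p = 0.0172) and -0.51 (without mock-A375 replicate 3, adjusted p = 0.0242). Those were the highest CD10-A375 and the lowest mock-A375 array after normalization, so leaving either out by itself widens the difference. RAD50, a partner of NBN, and RAD52 were not detected on any array. RAD52 came close, with a lowest detection p of 0.0156.

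Of the Fanconi anemia genes, which repair interstrand crosslinks, 3 of 6 were tested. FANCG, a part of the core ubiquitin ligase complex, had signals of 1765, 2282, 1707 and 1843 on the CD10-A375 arrays, against 1788, 1529, 1659 and 1664 on the mock-A375 arrays. After normalization the groups did not overlap and FANCG was higher in CD10-A375, with a log2 fold change of 0.23 (SE 0.06, adjusted p = 0.00777). It did not pass on values left unnormalized between arrays (adjusted p = 0.193) or with SAM, a permutation method (0.292). FANCC, of the same complex, was at -0.01 (95% interval -0.33 to 0.32, adjusted p = 0.974), and FANCI, whose product is modified by that ligase, at -0.08 (95% interval -0.28 to 0.11, adjusted p = 0.519). Neither passed the test, and BRIP1 was not detected on any array.

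Among the checkpoint kinases only CHEK2, a target of ATM, passed the test. Its signals were 176, 189, 138 and 164 on the CD10-A375 arrays, against 220.3, 201, 261 and 201 on the mock-A375 arrays. Its groups did not overlap, and the log2 fold change was -0.33 (SE 0.10, adjusted p = 0.0153). A second probe, at -0.40 (SE 0.10, adjusted p = 0.00334), was lower in CD10-A375 as well. CHEK2 has near-identical copies elsewhere in the genome that its probes may share, so its values are uncertain. Leaving out replicate 3 of CD10-A375 or of mock-A375 lost the call at the brightest probe, with adjusted p of 0.0532 and 0.0572.

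ATM, the kinase that double-strand breaks activate, had signals of 589, 675, 733 and 576 on the CD10-A375 arrays, against 656, 550.2, 509.8 and 588 on the mock-A375 arrays. The groups overlapped, and its log2 fold change was 0.20 (95% interval -0.0014 to 0.40, adjusted p = 0.114) at the brightest probe and -0.04 at the other. CHEK1, the target of ATR, was at 0.12 (95% interval -0.03 to 0.26, adjusted p = 0.221). ATR, the kinase that answers to stalled forks, was dim, with signals of 48.5, 46.1, 25 and 38.4 on the CD10-A375 arrays, against 23.8, 22, 30.5 and 27 on the mock-A375 arrays. It was detected on 3 CD10-A375 arrays and not in mock-A375, so no fold is given, and the adjusted p was 0.0897. Without replicate 3 of CD10-A375, the array on which it was not detected, the adjusted p was 0.0287. That array was the lowest of CD10-A375, so leaving it out by itself widens the difference. ATR entered the test only through CD10-A375, and the smaller p is no support for a difference.

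Mismatch repair held 1 gene in each direction among 4 tested, against 19.9% higher and 21.9% lower among all genes. MSH6, 1 partner of the dimer that recognizes single mispairs, had signals of 2881, 3484, 3183 and 2823 on the CD10-A375 arrays, against 2518, 2195, 2962 and 2743 on the mock-A375 arrays. It was higher in CD10-A375 with no overlap after normalization and a log2 fold change of 0.30 (SE 0.07, adjusted p = 0.00216). It did not pass on values left unnormalized between arrays (adjusted p = 0.0592) or with SAM (0.216). EXO1, the exonuclease that removes the mispaired strand and also trims broken ends, had signals of 1025, 1351, 1081 and 1067 on the CD10-A375 arrays, against 1536, 1185, 1670.3 and 1454 on the mock-A375 arrays. These did not overlap after normalization, and EXO1 was lower in CD10-A375, at -0.30 (SE 0.07, adjusted p = 0.0039), while a second probe, at -0.17, and the dimmest probe, detected on 1 mock-A375 array alone, did not pass the test.

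MSH3, which recognizes larger loops, had signals of 17465, 18164, 18569 and 17213 on the CD10-A375 arrays, against 18855, 17969, 18343 and 20454 on the mock-A375 arrays, which overlapped, and its log2 fold change was -0.09 (95% interval -0.21 to 0.04, adjusted p = 0.26). A second MSH3 probe, far dimmer with signals of 607 to 767, was at 0.12 (adjusted p = 0.262). Why the probes differ so in brightness was not examined, so the MSH3 values are uncertain. PMS2, whose product nicks the strand to be removed, was at 0.07 (95% interval -0.14 to 0.27, adjusted p = 0.646) at its brightest probe. A dimmer PMS2 probe was higher in CD10-A375, at 0.32 (SE 0.11, adjusted p = 0.0337), but 6 of the 8 fits without 1 array lost that call (those without CD10-A375 replicate 1 and mock-A375 replicate 2 kept it). PMS2 has many pseudogene copies, and its values are uncertain for that reason. PMS1 was not detected on any array.

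BLM and WRN, the 2 members that are RecQ helicases, which unwind recombination intermediates and stalled forks, were lower in CD10-A375, as were 21.9% of all genes. The family as a whole was mixed. Outside the members, RECQL was higher (0.37), RECQL4 was lower (-0.58) and RECQL5 did not pass the test. BLM had signals of 163, 215, 188 and 185 on the CD10-A375 arrays, against 278, 229.9, 244 and 256 on the mock-A375 arrays, without overlap, and a log2 fold change of -0.35 (SE 0.09, adjusted p = 0.00499). WRN had signals of 174, 214, 230.5 and 182 on the CD10-A375 arrays, against 301, 257, 240.1 and 241 on the mock-A375 arrays. After normalization 1 CD10-A375 array lay among the mock-A375 arrays, the log2 fold change was -0.31 (SE 0.11, adjusted p = 0.0273), and 5 of the 8 fits without 1 array lost the call, those without replicates 1, 2 and 4 of CD10-A375 and replicates 1 and 2 of mock-A375 (adjusted p up to 0.0954).

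By probe, 18 of the 46 members had 2 or more tested probes. The fitted differences of all probes of a gene had the same sign for 13 of them, and the signs differed for ERCC4, UNG, LIG3, ATM and MSH3, none of which had a probe past the test. Every probe was called for SLFN11, ERCC1, RAD51C and CHEK2, some probes for 6 genes and no probe for 8. No gene had probes called in opposite directions. Counted by probe, 10 of 71 member probes were higher (14.1%) and 16 were lower (22.5%), against 17.3% and 19.3% of all 19550 probes. The other 20 member probes were not detected on any array, the lowest detection p among them being 0.0104.

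**Figure D3:**
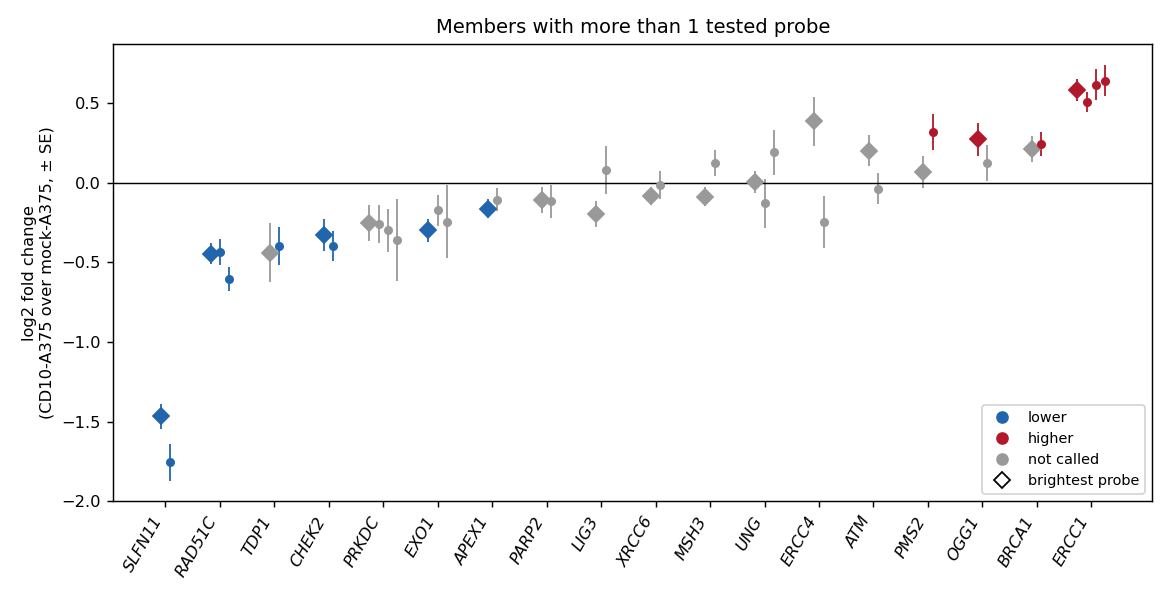
Log2 fold change of CD10-A375 over mock-A375 for each tested probe of the 18 members with 2 or more tested probes, with bars for the SE, a diamond for the brightest probe and blue or red for probes called lower or higher by limma. Both probes of ERCC4 and the dimmest of EXO1, each detected in only 1 group, are drawn at fitted values. The probes of SLFN11 and RAD51C all lie below 0 and those of ERCC1 all above it.

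The members on chromosome 8 were NBN, WRN, PRKDC and POLB. All 4 were below 0, with 2 past the test and a median log2 fold change of -0.28. The other 397 genes of chromosome 8 had a median of -0.27, with 48.9% lower and 14.4% higher, against a median of -0.02, 20.92% lower and 20.08% higher for the 10850 genes of the other chromosomes, members left out. The 3 tested genes on each side of NBN were all lower, from -0.25 for MMP16 to -0.90 for TMEM64. The neighbours were thus lower together with NBN, and DNA copy number was not measured. Of the other chromosomes, chromosome 20 had the lowest median, at -0.28 over 310 genes, and its member TOP1 was at -0.09.

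The neighbours of SLFN11 went in both directions. SLFN5, the nearest tested gene on 1 side in the SLFN gene cluster of chromosome 17, was higher in CD10-A375 at 0.59 (SE 0.15, adjusted p = 0.00462), and SLFN12, the nearest on the other side, was lower at -0.78 (SE 0.11, adjusted p = 1.51e-05). SLFN5 was detected on 4 CD10-A375 and 2 mock-A375 arrays. Beyond them, RAD51D was at 0.12 and did not pass the test, NLE1 was lower at -0.37, and AP2B1 and TAF15, at 0.28 and 0.01, did not pass it. The other 680 genes of chromosome 17 had a median of -0.01.

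**Figure D4:**
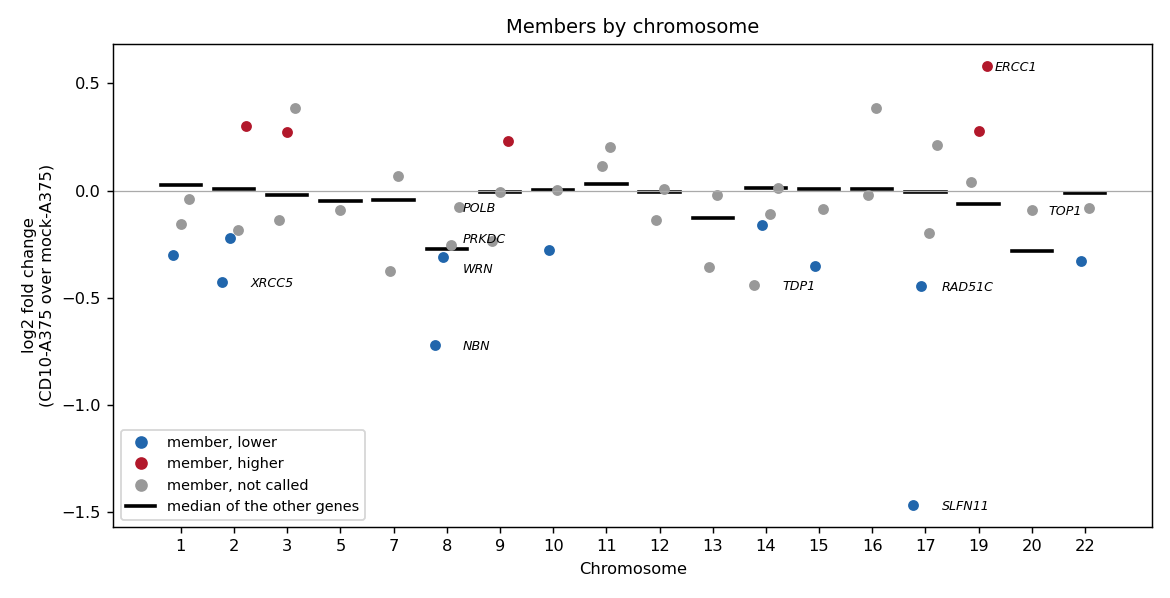
Log2 fold change of CD10-A375 over mock-A375 for members, as points by chromosome (blue lower, red higher, grey not called), and the median of the other tested genes of each chromosome as a black line. Chromosome 8, with a median of -0.27, and chromosome 20, with -0.28, have the lowest medians of those drawn, and all 4 chromosome 8 members lie below 0.

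Beyond the members, lists of related genes were counted in the same fit. Of 54 other repair genes tested, 8 were higher (14.8%) and 6 were lower (11.1%) in CD10-A375, with a median of -0.03. These were smaller shares than among all genes, of which 19.9% were higher and 21.9% were lower. The largest increases were MPG (0.94, detected on 4 CD10-A375 and 1 mock-A375 arrays) and NEIL2 (0.51), both glycosylases of base excision repair, and the RecQ helicase gene RECQL (0.37). HELQ, a helicase of crosslink repair, was seen on all 4 mock-A375 arrays but not in CD10-A375, where it was lower by at least 1.86-fold, counted from the lowest signal of detected probes (adjusted p = 4.52e-05). RECQL4, at -0.58, and the glycosylase gene NEIL3, at -0.44, were lower too. Among 13 replication checkpoint genes, RPA3 (0.35) and TIMELESS (0.18) were higher and TIPIN (-0.25) was lower. That is 15.4% higher and 7.69% lower, again smaller shares than among all genes.

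Of 6 topoisomerase genes, 2 were lower and none was higher, against 21.9% lower and 19.9% higher among all genes. TOP1MT, the topoisomerase of mitochondria, had signals of 469, 542, 392 and 454 on the CD10-A375 arrays, against 983, 881, 840.2 and 959 on the mock-A375 arrays. It did not overlap and differed by -0.92 (SE 0.08, adjusted p = 5.55e-08), and it lies on chromosome 8, as do RECQL4 and RRM2B, which were lower, and NEIL2, which was higher. TOP3A, the partner of BLM, was lower, at -0.28, and TOP2A, the main target of etoposide in dividing cells, was at 0.14 (95% interval 0.01 to 0.28, adjusted p = 0.0916) and did not pass the test.

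The genes that carry or convert the study's drugs were counted as well. Of 15 genes of gemcitabine uptake and metabolism, 3 were higher (20%) and 5 were lower (33.3%), with a median of 0.02. The shares among all genes were 19.9% higher and 21.9% lower. NT5E and NT5C, which remove phosphate from nucleotides, and the ribonucleotide reductase gene RRM1 were higher, by 0.52, 0.19 and 0.16. The nucleoside transporter gene SLC29A2, the kinase gene CMPK1 and the reductase gene RRM2B were lower, at -0.68, -0.49 and -0.42. Of 7 genes of etoposide transport and metabolism, 2 were higher (28.6%) and 3 were lower (42.9%), against the same 19.9% and 21.9% of all genes. ABCC3, an efflux transporter gene, had signals of 203, 248, 212 and 196 on the CD10-A375 arrays, against 31.5, 31.2, 12.4 and 11.3 on the mock-A375 arrays. It was not detected in mock-A375 and was higher by at least 4.40-fold in CD10-A375 (adjusted p = 1.25e-10), whereas ABCC2, a related transporter gene, had signals of 13.6, 28.4, 48.2 and 20.7 on the CD10-A375 arrays, against 197, 190.4, 196 and 232 on the mock-A375 arrays. It was detected on 1 CD10-A375 array and all 4 mock-A375 arrays and had a log2 fold change of -2.30 (SE 0.17, adjusted p = 3.38e-09). ABCB1, the multidrug transporter gene, was lower, at -0.72, but its probe was dim and was detected on 3 CD10-A375 and 4 mock-A375 arrays.

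Several repair genes are made mainly in S phase, so cell cycle genes were counted beside them. Of 19 S phase genes, 2 were higher (10.5%) and 6 were lower (31.6%), against 19.9% and 21.9% of all genes. Their median was -0.11, and CCNE1, PCNA and MCM10 were the lowest, at -0.64, -0.59 and -0.57. TK1 and PRIM1 were higher, by 0.26 and 0.21. Of 18 mitosis genes, 2 were higher (11.1%) and 3 were lower (16.7%), both smaller shares than among all genes, with a median of -0.04. CCNB1, TPX2 and KIF11 were lower, at -0.57, -0.44 and -0.42, and MKI67 and NUSAP1 were higher, by 0.35 and 0.29. The part of the cell cycle in the members' values was not tested.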

How the data were processed

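Transcript levels of CD10-A375 and mock-A375 cells were measured on Illumina bead arrays, 4 for each group. The scans were processed by the authors in GenomeStudio (version 1 according to the submitters' processing notes). They deposited 1 intensity for each probe, corrected for background but without normalization between arrays, beside a detection p-value against negative control probes. They also deposited average-normalized intensities, each array scaled to a mean of 413. The floor of 0.1 named in the methods had not been applied there. No column belonged to another sample.

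The intensities without normalization were passed through normexp, with its parameters taken from the detection p-values, then quantile normalized and logged to base 2 after adding 16, so that dim genes change less than their true fold. Probes were kept if any array had a detection p no higher than 0.01, and the 19550 kept were tested with limma 3.58.1 in R 4.3.3 (intensity trend, two-sided, Benjamini-Hochberg over all tested probes, threshold 0.05), and 27772 were left out. A bound in place of a fold is set against the lowest signal of detected probes on each array, and is given where 1 group was not detected on any array and the other on all 4. Where the other was detected on fewer, neither a fold nor a bound is given. The steps were tested on simulated data.

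Of all probes, 30113 carry 1 symbol in the platform annotation, 8 several and 17201 none. Probes with several symbols named no gene. Symbols, gene order and upstream sequences came from RefSeq (GRCh38.p14). Members, roles and lists were chosen with earlier results of these data known. Named with values are SLFN11, TOP1, TOP2B, TDP1 and MGMT, the members past the test in each role and those without a tested probe, and up to 3 genes per direction from each list. The values of other members, of neighbouring genes and of list genes not past the test were chosen for print after they were seen. Alternatives covered the normalization, background correction, offset, the study's own values and thresholds, the filter, SAM (written anew here, as the package was not installed), the trend, a block for the replicate number, the choice of probe for a gene and leave-one-out fits.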

Additional observations from a re-analysis of the deposited data

Results flagged for a closer look

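Of 92 groups of 4 arrays, 1 per group for each tested member at its brightest probe, 5 held an array far from the other 3, and chance flags about 1 in 20 groups. The values are normalized log2 signals. BLM was low on replicate 1 of CD10-A375, at 7.53, against 7.72 to 7.75 on the other CD10-A375 arrays. ATM was high on replicate 3 of CD10-A375, at 9.65, with 9.27 to 9.31 on the others. XRCC3 was high on replicate 1 of CD10-A375, at 7.83, with 7.65 to 7.67 on the others. XRCC6 was low on replicate 4 of CD10-A375, at 11.85, with 11.95 to 11.97 on the others. OGG1 was high on replicate 3 of mock-A375, at 8.70, with 8.28 to 8.31 on the other mock-A375 arrays.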

How the results depend on the processing

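No called value of a member changed sign and the median of the members stayed below 0 under every alternative run, but the balance of all probes called turned: 47.3% of them were higher with limma, 53.5% with SAM and 59.3% at the study's thresholds. SLFN11, NBN and ERCC1 passed the test in all 19 alternatives that kept the threshold of 0.05, and RAD51C, XRCC5, BLM, EXO1 and MGMT in all but SAM. The stricter thresholds, given below, are not among the 19. MGMT, with an adjusted p of 0.0119 in limma, did not pass at 0.01. SAM, the method of the study, was written anew here and may differ from the package in its counts. It rests on 70 labelings of the 8 arrays. SAM called 2797 probes, against 7162 with limma, 4 member probes higher and 4 lower (10 and 16 with limma), and 1 member gene higher and 2 lower (5 and 11). The study's thresholds, an unadjusted p under 0.01 and a 2-fold difference, were applied here to the limma p-values and the quantile-normalized signals. The study used SAM on average-normalized values, so these counts are not those of its own procedure. They left 969 probes, 0 member probes higher and 2 lower, and 0 member genes higher and 1 lower, SLFN11. An adjusted p under 0.01 left 6 member probes higher and 10 lower, and 3 member genes higher and 6 lower. Without normalization between arrays 4 member probes and 1 member gene were higher, and the median log2 fold change of the members was -0.13. Leaving out 1 array at a time gave 6410 to 6939 probes, 7 to 10 member probes higher and 13 to 21 lower, 3 to 6 member genes higher and 8 to 13 lower, and a median of -0.127 to -0.0933. The 3 higher genes were left without mock-A375 replicate 4. The replicate numbers did not pair the arrays, since the correlations of same-numbered deviations were -0.01, -0.05, -0.19 and 0.03, and 1 of 8 arrays was closest to its own number. With the replicate block 6635 probes were called, 9 member probes higher and 14 lower, and 5 member genes higher and 9 lower, APEX1 and WRN having lost the call. Without the filter on dim probes the calls of ERCC3, OGG1, APEX1 and WRN were lost (adjusted p of 0.0543, 0.0747, 0.0826 and 0.0507), and without the intensity trend those of OGG1, APEX1 and WRN (0.0941, 0.0929 and 0.0558). Without normalization between arrays TDP1, PRKDC and XRCC2 passed the test (0.00105, 0.0246 and 0.00591). For single probes of members, 971 values stayed on their side of the threshold, 69 lost the call and 18 gained it. ERCC4, ERCC6, LIG4 and ATR were not detected on every array, which limits what their values show.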

Other observations

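Replicate 3 of mock-A375 was the lowest of the 4 mock-A375 arrays for several members after normalization, a set chosen after the values were seen. For TDP1 it was at 9.09, with 9.93 to 10.21 on the others, and for XRCC2 at 8.85, with 9.19 to 9.50 on the others. At the 4 probes of PRKDC, in order of brightness, it was at 10.55, 7.52, 7.30 and 5.00, each the lowest of the 4 mock-A375 arrays. LIG3 was at 8.47 there, with 8.69 to 8.74 on the others. The dimmer TDP1 probe did not share this, with 6.63 on that array and 6.55 to 6.60 on the other mock-A375 arrays.

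The tested neighbours of ERCC1 and RAD51C were mixed. Next to ERCC1 on chromosome 19, FOSB was lower in CD10-A375, at -0.56, and VASP was higher, at 0.36, while ERCC2, PPP1R13L, POLR1G and RTN2, at 0.04, 0.39, -0.26 and 0.19, did not pass the test. Next to RAD51C on chromosome 17, SUPT4H1 and MTMR4 were lower, at -0.26 and -0.48, SEPTIN4 was higher, at 0.62, and PPM1E, TRIM37 and SKA2, at 0.02, 0.09 and 0.13, did not pass the test.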
